A study of Drosophila melanogaster with 36 samples.

Results

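The 12 arrays described here compare abdominal fat body of dnClk and WT males from dusk through the night. They were chosen by time alone from the 36 arrays of the series: 6 dnClk arrays and 6 WT arrays at ZT 12, 16 and 20 on the first night and at ZT 36, 40 and 44 on the second. ZT counts hours from the first lights on, so ZT 12 and ZT 36 are the times of lights off. These hours were picked because the clock transcripts per, tim and vri are high then. The dnClk group carried a transgene whose name, dnClk, stands for dominant-negative Clock. Its driver is not given here, so the cells in which it was active are not known. The WT group was labelled w; UAS-dnClk/+, which is the same transgene without a named driver. In both groups newly eclosed males were kept for 5 days at 25 °C under 12 h light and 12 h dark, and collection ran over 2 days from day 6. Each array holds RNA from 10 pooled fat bodies, and no time point was repeated. The 6 times of a genotype therefore serve as its replicates, and arrays of the same ZT were paired.

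In the fly clock, the proteins Clock and Cycle bind together to DNA and switch on per, tim, vri, Pdp1 and cwo, whose transcripts build up around dusk. The Period and Timeless proteins then enter the nucleus late at night and block Clock and Cycle, while Vrille holds back the Clk gene. The fat body combines roles that vertebrates divide between liver and adipose tissue: it stores glycogen and triglyceride, makes the blood sugar trehalose, detoxifies and secretes immune peptides.

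The arrays of the genotypes were not on a common footing, which bears on every direction given below. The deposited scaling gives each array the same trimmed mean. The bacterial hybridisation controls, which are added in fixed amounts, averaged 10.18 ± 0.21 log2 units on dnClk arrays and 12.33 ± 0.27 on WT arrays (SD, n = 6 each), 4.43-fold lower on dnClk arrays with no overlap (two-sided exact permutation test over all divisions of the 12 arrays into 6 and 6, without pairing, p = 0.0022, the smallest such divisions allow, adjusted p = 0.0046 over 15 array measures). The 99th percentile of intensity ran from 1752 to 2088 on dnClk arrays and from 2761 to 4383 on WT arrays. The log2 ratio of 3′ to 5′ signal for the Gapdh controls was 1.56 ± 0.35 on dnClk arrays and 2.50 ± 0.18 on WT arrays (exact permutation adjusted p = 0.0046). Of the 3 other such ratios, the second for Gapdh (3.02 on dnClk arrays, 3.78 on WT arrays) and the second for Act5C (1.44 on dnClk arrays, 3.41 on WT arrays) were lower on dnClk arrays too, and the first for Act5C was 1.43 on dnClk arrays and 1.12 on WT arrays (exact permutation p = 0.23). The genotype effect and that of array processing cannot be told apart, and higher or lower means relative to the other transcripts of an array. Each result is therefore given as deposited, and a gene is called stable to scaling where limma called it with the same sign as deposited, after quantile normalization, and with each array centred on its median. Ranks within arrays were fitted too and are not part of this rule. Some genes stable to scaling did not pass by rank, such as FASN1, Tps1, Men and Pgi (limma adjusted p = 0.64, 0.33, 0.24 and 0.21). Others did, such as Hex-C and Pgm1 (limma adjusted p = 0.0013 and 0.0037). Differences are means of 6 paired differences in log2(intensity + 16), dnClk minus WT, with their standard error, and adjusted p-values run over all 11261 probe sets tested.

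Clk, the gene the transgene is named for, stood far higher in dnClk. Its probe set read 669, 749, 649, 550, 701 and 635 intensity units in dnClk at ZT 12, 16, 20, 36, 40 and 44, against 97.9, 109, 155, 118, 95.2 and 79.8 in WT at the same times. Every dnClk array lay above every WT array, and the difference was 2.45 ± 0.15 log2 units, or 5.46-fold (limma adjusted p = 2.6e-05). Within arrays, Clk ranked between percentiles 86.5 and 90.5 of the tested probe sets in dnClk and between 45.4 and 60.1 in WT. The dimmer probe sets left out of the tests are not part of this ranking. Whether this probe set also reads the transgene's transcript was not tested.

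Of the night transcripts that Clock drives, tim and vri were lower in dnClk. For tim (timeless), the light-sensitive partner of Period, dnClk arrays read 894, 1051, 780, 1011, 1109 and 629 units at the 6 times and WT arrays 3171, 2690, 3060, 1926, 5221 and 4123. The groups did not overlap, and the difference was -1.82 ± 0.23 log2 units (95% interval -2.35 to -1.29), a 3.53-fold lower signal in dnClk (limma adjusted p = 0.00074). For vri (vrille), the repressor of Clk, dnClk arrays read 486, 425, 241, 417, 468 and 252 units, while WT arrays read 1317, 1268, 812, 768, 1415 and 480. Here dnClk was lower at each of the 6 times, although its ZT 12 value exceeded the WT value at ZT 44, and the difference was -1.32 ± 0.16 (95% interval -1.69 to -0.96, limma adjusted p = 0.0006). Both genes were stable to scaling. By rank within arrays the limma adjusted p was 0.05 for tim and 0.0074 for vri. Their differences were smallest at the second dusk, ZT 36: for tim -0.92 there, against -1.34 to -2.68 at the other 5 times. For vri the value at ZT 36, -0.86, was close to that at ZT 44, -0.89. A second, dimmer tim probe set differed by -0.84 (limma adjusted p = 0.011).

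The transcript of per (period) did not pass as deposited. It read 109, 156, 77.8, 116, 184 and 64.3 units in dnClk and 174, 204, 136, 94.1, 319 and 215 in WT. It was lower in dnClk at 5 of 6 times, the exception being ZT 36, and differed by -0.61 ± 0.22 (limma adjusted p = 0.065). After quantile normalization the difference was -0.89 (limma adjusted p = 0.030), with median centring -1.10 (limma adjusted p = 0.023), and without the ZT 36 pair -0.78 as deposited (limma adjusted p = 0.015). The deposited difference of -0.61 also passed with the hour after lights on as the block (limma adjusted p = 0.043) and with a variance trend on intensity (limma adjusted p = 0.048). With the paired testis difference as a covariate it was -0.38 (limma adjusted p = 0.48). Against WT arrays taken 2 h later in the night, a comparison added after the data were seen, tim differed by -1.64 (limma adjusted p = 0.00039), vri by -0.87 (limma adjusted p = 0.018) and per by -0.33 (limma adjusted p = 0.20). The size of the vri and per differences thus moved with the WT hour they were set against.

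**Figure D1:**
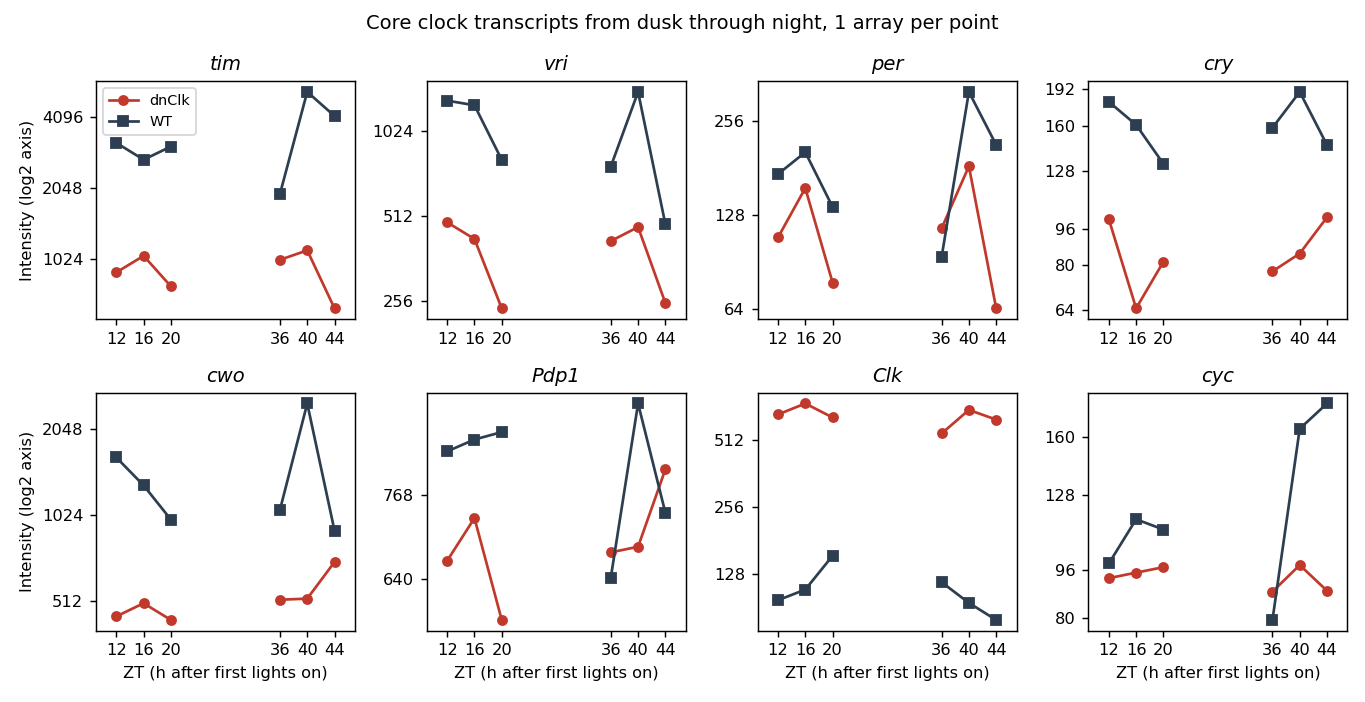
Intensity of the 8 core clock transcripts (log2 axis, scale set for each gene) against ZT in hours at the 6 dusk and night times, with dnClk as circles and WT as squares, 1 array per point and lines joining the points of a night. dnClk lies below WT at every time for tim, vri, cwo and cry and above it at every time for Clk, while per, Pdp1 and cyc cross.

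Of the other clock genes, cwo and cry were lower in dnClk and stable to scaling. The repressor cwo (clockwork orange) ran from 438 through a median of 509 to 700 units in dnClk and from 903 through 1184 to 2525 in WT, with no overlap (-1.32 ± 0.24, limma adjusted p = 0.0045). Its second probe set differed by -0.83 (limma adjusted p = 0.016). For cry (cryptochrome), the clock's photoreceptor, the range was 64.6 to 102 units with a median of 83.1 in dnClk and 132 to 189 with a median of 159 in WT, again without overlap (-0.81 ± 0.14, limma adjusted p = 0.0033). The activator gene Pdp1 gave -0.23 ± 0.14 (limma adjusted p = 0.22) and passed only with centring (-0.72, limma adjusted p = 0.019), with 586 to 812 units in dnClk and 642 to 937 in WT. cyc, which encodes Clock's partner, gave -0.33 ± 0.17 as deposited (limma adjusted p = 0.15) and -0.64 after quantile normalization (limma adjusted p = 0.037). With median centring it gave -0.82 (limma adjusted p = 0.041), and it passed by rank within arrays too (limma adjusted p = 0.033). In dnClk cyc kept within 88.4 to 97.9 units, while in WT it ran from 79.3 to 182. With the testis covariate cwo differed by -1.0 (limma adjusted p = 0.11) and cry by -0.79 (limma adjusted p = 0.054), while Clk, tim and vri passed. In all, 1 of 8 core clock genes was higher and 4 lower, with stability to scaling, against a background of 5.29% of 8472 genes higher and 9.05% lower. As deposited the counts were the same, against 19.3% and 11.9%. Ranges of intensity were apart for 1 higher and 3 lower, against 14.1% and 7.38%. Their median difference was -0.71, against 0.24 for all genes. Of 5 tested kinases, phosphatases and degradation factors of the clock, ctrip (circadian trip), a ubiquitin ligase, was higher as deposited (0.59 ± 0.14, limma adjusted p = 0.019) and not after centring (0.10, limma adjusted p = 0.72), and its dimmer second probe set gave 0.19 (limma adjusted p = 0.49).

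The same genotype difference was also taken by day, over the 6 pairs at ZT 0, 4, 8, 24, 28 and 32, and subtracted from the night value. For vri the night difference of -1.32 stood beside a day difference of -0.31 ± 0.24, a night minus day value of -1.01 ± 0.30 log2 units (limma p = 0.0049, adjusted p = 0.84). By day vri ran from 136 to 349 units in dnClk and from 140 to 547 in WT, and the ranges overlapped. For tim the day difference was -0.80 ± 0.27 and the night minus day value -1.02 ± 0.37 (limma p = 0.018, adjusted p = 0.84). For per the day difference was 0.12 ± 0.21, with a night minus day value of -0.73 ± 0.31 (limma p = 0.037, adjusted p = 0.84), and for Clk it was 1.90 ± 0.19, with a value of 0.54 ± 0.25 (limma p = 0.047, adjusted p = 0.84). cry and cwo had day differences of -0.76 and -0.91, and their night minus day values were -0.05 and -0.42 ± 0.41 (limma adjusted p = 0.84 for cwo). None of these passed the threshold over all probe sets, and the hours had been picked for high per, tim and vri. Testis transcripts had a median night minus day value of 2.20 over 18 genes. With the testis level as a covariate the night minus day values were -0.64 for vri, -0.81 for tim, -0.38 for per and 0.40 for Clk.

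**Figure D2:**
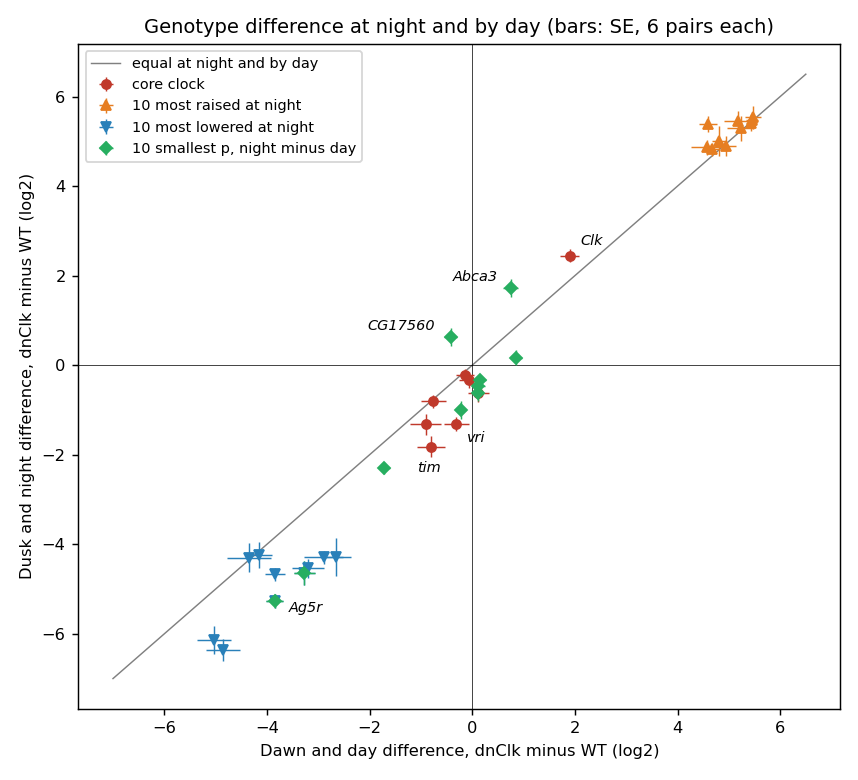
Genotype difference at dusk and night (vertical axis) against that at dawn and day (horizontal axis), dnClk minus WT in log2 units, for the core clock genes and for the genes named by size or by the night minus day test, with bars for the standard error over 6 pairs and a grey line of equal differences. tim and vri lie below the line and Clk above it, the most raised genes lie close to it, and Ag5r lies below it.

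Across the transcriptome the count of differences at night was large, and its split between directions rested on the scaling. limma called 2122 probe sets higher in dnClk (18.8% of those tested) and 1240 lower (11%) as deposited. It called 1146 higher (10.2%) and 1563 lower (13.9%) after quantile normalization, 567 and 2444 with median centring, and 985 and 1703 when ranks within each array replaced intensities. Over all probe sets the median difference was 0.28 on the deposited scale, -0.01 on the quantile-normalized scale and -0.21 on the centred scale. It depended on brightness, with a median of 0.45 in the dimmest of 5 equal groups and -0.22 in the brightest. Called with 1 sign under all 3 scalings were 448 genes higher in dnClk (5.29% of 8472) and 767 lower (9.05%). Both shares serve as the background for the list counts below. As deposited the background was 19.3% of genes higher and 11.9% lower.

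These counts moved with single pairs. The WT array at ZT 36 had the highest testis signal of the 12 arrays, and without its pair 774 genes were higher and 906 lower under all 3 scalings, of which 419 and 745 were among those called with all 6 pairs. Where leaving out 1 pair ended the call under all 3 scalings of a list member named below, this is said beside the gene. The lower count fell to 477 without the ZT 12 pair, 510 without ZT 16 and 471 without ZT 40. As deposited, the higher probe sets numbered 1221 without ZT 12, 1298 without ZT 16, 1302 without ZT 20 and 1103 without ZT 40. With the paired testis difference as a covariate, 845 probe sets were higher and 440 lower, and 1253 of these 1285 were called with the same sign without it. This fit covered all tested probe sets, but among the genes described below it was read only for those picked by the naming rule. Of these, fit, sxe2, colt, Mtp, Pdk1, foxo, Drs, PGRP-SC2, PGRP-LB and mRpS30 did not pass with this covariate. Whether the other list members passed with it is not given here.

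**Figure D3:**
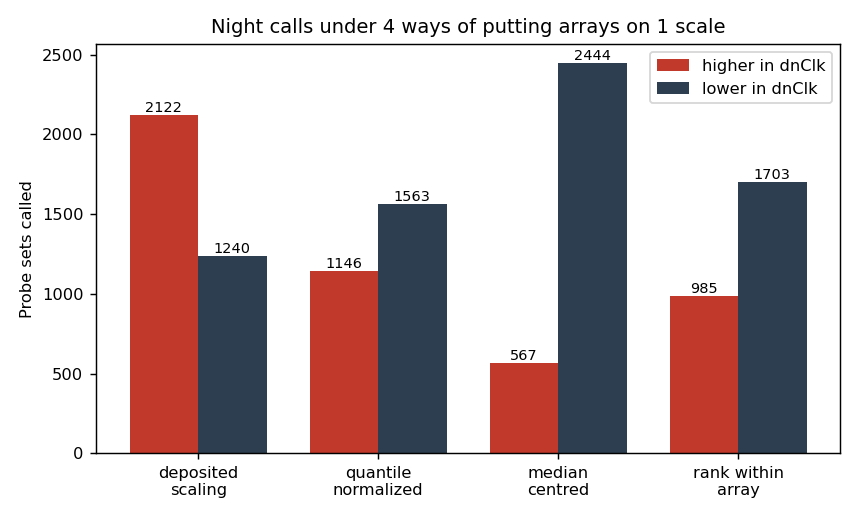
Number of probe sets that limma called higher (left bar of each pair) and lower (right bar) in dnClk at dusk and night, of 11261 tested, under the deposited scaling, quantile normalization, median centring and ranks within arrays. Higher calls outnumber lower ones only as deposited.

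The genes with the largest rises were bright on dnClk arrays and close to the dim end of WT arrays. Cyp4p2, a cytochrome P450 gene, ran from 1345 through a median of 1607 to 2529 units in dnClk and from 8.2 through 18.3 to 45.0 in WT, a difference of 5.54 ± 0.26 (limma adjusted p = 5.9e-06). LysX, a lysozyme gene, ran from 1188 to 1691 units in dnClk and from 1.2 to 28.7 in WT (5.45 ± 0.22, limma adjusted p = 3.7e-06). The groups were apart for both, and each gene's day difference was of like size, at 5.47 and 5.18. The glutathione transferase gene GstD2 had a median of 1526 units in dnClk and 30.3 in WT (4.90 ± 0.23), and the C-type lectin gene lectin-24A 1512 in dnClk and 44.2 in WT (4.82 ± 0.15). The other 6 of the 10 most raised genes were CG7763, CG15865, CG9689, CG3513, CG44251 and CG9686, with differences from 4.87 for CG9686 to 5.47 for CG7763. For these 10 genes, which were chosen for the size and evenness of their differences, every dnClk array lay above every WT array. Their median WT signals are near or under the mean of the dimmest probe sets tested, 32 units, and the table used here carries no detection calls. Single WT arrays read higher, such as 153 units for CG44251 at ZT 12, 86.5 for CG3513 at ZT 44 and 56.4 for GstD2 at ZT 16. These sizes therefore depend on the pseudocount and are smaller than a plain ratio would be.

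The largest falls were of genes that were bright in WT. CG16826 ran from 31.5 through 125 to 178 units in dnClk and from 9003 through 9949 to 12410 in WT (-6.36 ± 0.24, limma adjusted p = 3e-06, and 0.23 with a variance trend on intensity). LysP, another lysozyme gene, was at 0.6 to 42.1 units in dnClk and at 1301 to 3035 in WT (-6.14 ± 0.32, limma adjusted p = 9.4e-06, and 0.16 with the variance trend). Its dnClk values are near or under 32 units as well, so the size of this difference is set by the pseudocount: it was -7.93 with a pseudocount of 1 and -4.68 with 64. LysP and LysX differed in opposite directions. Lysozyme genes are alike in sequence and their probe sets may read each other's transcripts, which was not tested. Gnmt, the glycine N-methyltransferase that uses up methyl groups, had a median of 288 units in dnClk and 6065 in WT (-4.24 ± 0.29). The maltase gene Mal-B1 had 68.5 in dnClk and 1817 in WT (-4.29 ± 0.15). nompA, a gene for an extracellular protein of mechanosensory organs, had 54.9 in dnClk and 1797 in WT (-4.30 ± 0.33). The rest were Ag5r, CG33109, whe, CG13947 and CG30371, between -5.27 for Ag5r and -4.28 for CG30371. For all 10 lowered genes, chosen in the same way, every dnClk array was below every WT array.

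Genes for making and breaking down storage sugar were lower in dnClk. Of 9 tested genes of glycogen and trehalose, 6 were lower and 0 higher with stability to scaling, and their median difference was -1.28 as deposited and -0.85 after quantile normalization. Pgm1 (phosphoglucomutase) ran from 489 through 626 to 709 units in dnClk and from 1795 through 3495 to 4732 in WT (-2.41 ± 0.20, limma adjusted p = 0.00011). Tps1, which makes trehalose, had a median of 1642 units in dnClk and 5522 in WT. It differed by -1.81 as deposited and by -0.85 after quantile normalization (limma adjusted p = 0.0037). The other 4 were Glyp (glycogen phosphorylase), AGBE (glycogen branching enzyme), CG9485 (a debranching enzyme) and the trehalose transporter gene Tret1-1, from -1.17 to -1.63. Treh (trehalase) was higher as deposited (0.44) and not stable to scaling.

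Glycolysis and glucose formation showed the same direction. Of 10 tested glycolysis genes 6 were lower under all 3 scalings and 0 higher, with a median of -0.75 as deposited and -0.52 after quantile normalization. With single pairs left out the lower count was 2 without ZT 40, 3 without ZT 12, 4 without ZT 16 or ZT 44, 5 without ZT 20 and 6 without ZT 36. Hex-C, a hexokinase gene of the fat body, ran from 166 through 285 to 306 units in dnClk and from 1989 through 3173 to 4935 in WT (-3.60 ± 0.25, limma adjusted p = 4.3e-05). Pgi, the isomerase of the next step, differed by -1.01 ± 0.14 and the remaining 4, Pfk, Tpi, Gapdh1 and Pgk, by -0.61 to -0.76. The calls of Hex-C and Tpi held with any pair left out. That of Pgi ended without ZT 12 or ZT 40, and that of Pfk without ZT 40. Gapdh1 kept its call only when ZT 20 or ZT 36 was left out, and Pgk only when ZT 36 was. In the list of gluconeogenesis and fat body sugar enzymes 6 of 7 tested genes were lower and 0 higher, with a median of -2.52 and, after quantile normalization, -2.34. Pepck1 (phosphoenolpyruvate carboxykinase) had a median of 842 units in dnClk and 5419 in WT (-2.92 ± 0.26, limma adjusted p = 0.00013). tobi, a glucosidase gene known as a target of insulin and adipokinetic hormone, ran from 37.3 to 331 units in dnClk and from 547 to 4682 in WT (-3.74 ± 0.61, limma adjusted p = 0.0027). fbp (fructose bisphosphatase) differed by -2.52, Sodh1 (sorbitol dehydrogenase) by -2.60, PCB (pyruvate carboxylase) by -1.59 and Gpdh1 (glycerol-3-phosphate dehydrogenase) by -1.72. The 3 further probe sets of Gpdh1 were lower too, by -1.14 to -2.18.

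**Figure D4:**
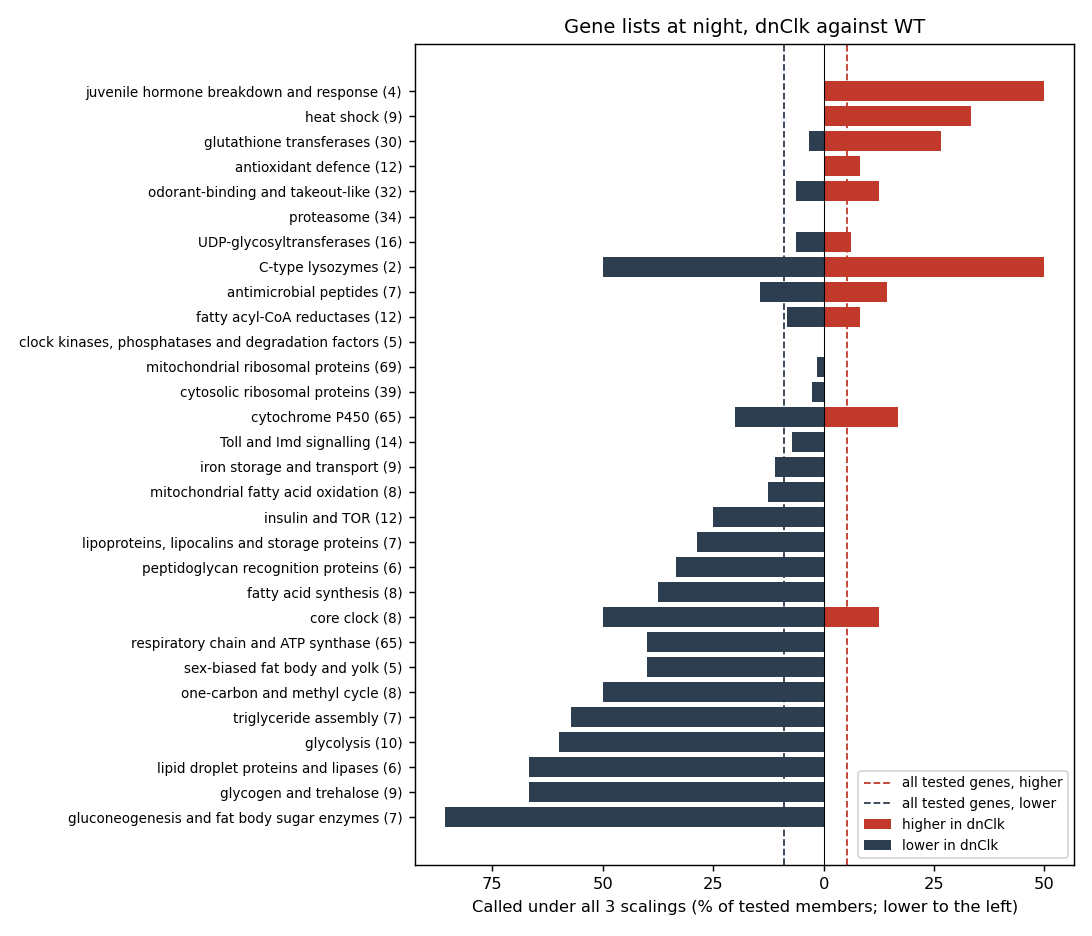
Share of the tested members of each gene list (number tested in brackets) called under all 3 scalings at dusk and night, with the share higher in dnClk drawn to the right in red, the share lower drawn to the left in dark blue, and dashed lines at the shares among all 8472 tested genes, 5.29% higher and 9.05% lower. Sugar, triglyceride and lipid droplet lists reach farthest to the left, and juvenile hormone, heat shock and glutathione transferase lists lean to the right.

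Most lipid synthesis and storage genes were lower as deposited, but the brightest of them depended on the scaling. Of 8 fatty acid synthesis genes, 6 were lower as deposited and 3 under all 3 scalings, and their median was -1.06 as deposited and -0.18 after quantile normalization. FASN1 (fatty acid synthase) ran from 1946 to 2262 units in dnClk and from 6235 to 8780 in WT, a difference of -1.75 as deposited and -0.55 after quantile normalization (limma adjusted p = 0.012), and its call under all 3 scalings ended without ZT 12. The other 2 were ACC (acetyl-CoA carboxylase, -1.47) and Men (malic enzyme, -1.83). Desat1 (a fatty acid desaturase) differed by -1.20 as deposited and by 0.00 after quantile normalization. In triglyceride assembly 4 of 7 genes were lower under all 3 scalings, namely the acyl-CoA synthetase genes bgm (-1.88 ± 0.15) and Acsl (-0.83 ± 0.14), the acyltransferase gene mino (-1.67 ± 0.17) and mdy (-1.52 ± 0.24), which encodes the last enzyme of the pathway. Acsl kept its call only when ZT 44 was the pair left out. Gpat4, an acyltransferase gene of the same list, was higher as deposited with no overlap (0.49 ± 0.12, limma adjusted p = 0.020) and 0.00 with median centring. The list's median was -0.98 as deposited and -0.46 after quantile normalization.

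On the droplet side 4 of 6 genes were lower and 0 higher under all 3 scalings, with a median of -1.40 as deposited and -1.02 after quantile normalization. AkhR, the receptor for adipokinetic hormone that mobilises fat and glycogen, ran from 131 through 232 to 284 units in dnClk and from 794 through 1224 to 1687 in WT (-2.34 ± 0.17, limma adjusted p = 5.9e-05). bmm (brummer), the triglyceride lipase, ran from 673 through 733 to 905 units in dnClk and from 1480 through 2000 to 3188 in WT (-1.41 ± 0.14, limma adjusted p = 0.00027). The droplet coat gene Lsd-1 differed by -1.54 and the lipase gene CG5966 by -1.16. Of 8 mitochondrial fatty acid oxidation genes only colt, a carnitine carrier, passed (-1.29 ± 0.28). Of 7 lipoprotein, lipocalin and storage protein genes, Lsp2, a storage protein, was lower by -2.47 ± 0.23 and Mtp, which loads lipoproteins, by -0.94 ± 0.30, the call of Mtp being lost without ZT 12, 16, 20 or 40. apolpp, the main lipoprotein of the blood, differed by -1.18 as deposited and 0.07 after quantile normalization.

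Of 8 one-carbon and methyl cycle genes 4 were lower under all 3 scalings, 0 were higher and 4 were not called. The 4 were Gnmt, pug (-2.08 ± 0.30), a folate enzyme gene, Sardh (sarcosine dehydrogenase, -2.0 ± 0.22) and Sam-S (S-adenosylmethionine synthetase, -1.28 ± 0.14). Sardh had a median of 63.5 units in dnClk and 306 in WT. In the insulin and TOR list 3 of 12 genes were lower, each by less than 1 log2 unit: the kinase gene Pdk1 (-0.92), the transcription factor gene foxo (-0.78) and chico, the insulin receptor substrate (-0.38). The calls of foxo and chico ended without ZT 12, 16, 20 or 40. Jhe, an esterase that inactivates juvenile hormone, rose: it ran from 68.7 through 154 to 235 units in dnClk and from 8.8 through 18.8 to 61.1 in WT (1.93 ± 0.18, limma adjusted p = 0.00019). Jhbp1, for a binding protein of the same hormone, rose too (1.28 ± 0.17, limma adjusted p = 0.0011), which makes 2 of 4 tested genes of that list, although the second was not called under all 3 scalings without ZT 20 or ZT 40.

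Detoxification genes moved in both directions. Of 65 cytochrome P450 genes 11 were higher and 13 lower under all 3 scalings, against 5.29% and 9.05% of all tested genes. Besides Cyp4p2, the raised ones included Cyp6d2, with a mean of 1497 units in dnClk and 193 in WT (2.90 ± 0.19, limma adjusted p = 3.2e-05), Cyp9b1 (2.60 ± 0.23) and Cyp4s3 (2.40 ± 0.16). The lowered ones included Cyp6g1, known for its part in resistance to insecticides, with a mean of 443 units in dnClk and 4477 in WT (-3.32 ± 0.27, limma adjusted p = 9.7e-05). Cyp6w1 ran from 152 to 191 units in dnClk and from 928 to 2928 in WT (-3.25 ± 0.21, limma adjusted p = 2.7e-05). Of 30 glutathione transferase genes 8 were higher and 1 lower. Among the 8 were GstD2, GstD3, GstD4, GstD9 and GstD10, near copies of each other whose probe sets may share signal, with differences of 1.49 to 4.90, and the exception was GstE12 (-1.30), called with all 6 pairs and without ZT 36 but not with any other pair left out. Of 16 UDP-glycosyltransferase genes, under the same rule, Ugt317A1 was higher (1.58 ± 0.15) and Ugt49B1 lower (-0.76 ± 0.23), the call of Ugt49B1 holding only when ZT 36 was the pair left out. Trxr1 (thioredoxin reductase) was the antioxidant gene, of 12 tested, that passed under all 3 scalings (1.20 ± 0.14), at 964 to 1203 units in dnClk and 378 to 561 in WT. Its call as deposited held with any pair left out, and that under all 3 scalings only with ZT 44 left out. In the same list 2 genes were higher and 2 lower as deposited.

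Immune and stress genes were called in both directions. Among 7 antimicrobial peptide genes, Drsl5, a drosomycin-like gene, had a median of 2545 units in dnClk and 230 in WT, with no overlap (3.30 ± 0.14, limma adjusted p = 4.1e-06). Drosomycin itself, Drs, was lower by -0.70 ± 0.23 (limma adjusted p = 0.049) with overlapping ranges, a call that held only with ZT 36 left out. Of 6 peptidoglycan recognition protein genes, the amidase genes PGRP-SC2 (-1.25 ± 0.29) and PGRP-LB (-0.84 ± 0.23), which cut up bacterial cell wall and damp the response, were lower under all 3 scalings. PGRP-SC2 was not called without ZT 40, nor PGRP-LB without ZT 12, 16 or 40. PGRP-LA (0.70 ± 0.20, limma adjusted p = 0.033) and PGRP-LE (0.57 ± 0.15, limma adjusted p = 0.025) were higher as deposited with no overlap, and did not pass after quantile normalization (limma adjusted p = 0.052 and 0.064). In the Toll and Imd list 6 of 14 genes were higher as deposited, against 19.3% of all tested genes. Under all 3 scalings 0 were higher and only Myd88, a Toll adaptor, was lower (-0.80 ± 0.18). The heat shock genes Hsp26 (1.98 ± 0.18), Hsp27 (1.35 ± 0.27) and Hsp68 (1.69 ± 0.23) were higher under all 3 scalings, 3 of 9 tested, with any pair left out. Their ranges overlapped between the genotypes. Of the same list Hsc70-3 (-1.04), Hsc70-4 (-0.97) and DnaJ-1 (-0.47) were lower as deposited with no overlap, and gave 0.14, 0.23 and -0.20 after quantile normalization. Hsp26 ran from 281 to 647 units in dnClk, and in WT from 60.9 to 85.5 except for 291 at ZT 36. Tsf1 (transferrin) was lower by -2.24 as deposited and -1.41 after quantile normalization (limma adjusted p = 0.00017), while its second, dimmer probe set gave -0.84 (limma adjusted p = 0.13) with overlapping ranges. The ferritin genes Fer1HCH and Fer2LCH differed by -1.18 and -1.15 as deposited, and by 0.01 and 0.11 after quantile normalization. Among 32 odorant-binding and takeout-like genes 4 were higher and 2 lower under all 3 scalings, against 5.29% and 9.05% of all tested genes. The calls were led by Obp49a (3.74 ± 0.19), which ran from 294 to 930 units in dnClk and from 15.7 to 37.0 in WT, and Obp18a (-1.93 ± 0.15).

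Respiration and translation genes, which are bright, behaved unlike each other under the scalings. Of 65 respiratory chain and ATP synthase genes 42 were lower and 3 higher as deposited, against 11.9% and 19.3% of all tested genes. Called under all 3 scalings were 26 lower and 0 higher, against 9.05% and 5.29%. The list's median was -0.77 as deposited and -0.48 after quantile normalization. Under all 3 scalings 32 were lower and 5 higher without the ZT 36 pair, and with the other pairs left out in turn 12 to 23 were lower and 0 higher, the 12 being without ZT 40 and 15 without ZT 12. The 3 higher as deposited were COX4L, COX6AL and COX6AL2, with differences of 0.94 to 1.31. All 3 were among the 5 higher without the ZT 36 pair, the setting in which most testis genes were called higher too. The part of testis RNA in these calls, and in the 2 higher ribosomal calls below, was not tested. ND-MLRQ, a subunit gene of complex I, ran from 1858 to 2491 units in dnClk and from 4132 to 7637 in WT (-1.5 as deposited, -0.39 after quantile normalization), and was called under all 3 scalings with all pairs and without ZT 36 or ZT 44 only. ATPsyngamma differed by -1.26 as deposited and -0.64 after quantile normalization and was called with any pair left out. Of 39 cytosolic ribosomal protein genes 29 were lower as deposited, with a median of -1.13, but the median was -0.02 after quantile normalization and RpLP0 alone was called under all 3 scalings. Without the ZT 36 pair 2 were lower and 2 higher, and RpLP0 was not called without ZT 12, 16, 20 or 40. Of 69 mitochondrial ribosomal protein genes 1, mRpS30, was called (-0.67 ± 0.18), with 0 to 3 lower when single pairs were left out (3 without ZT 36), and of 34 proteasome genes 0. The call of mRpS30 was lost without ZT 12, 16, 20 or 40. The sex-biased list gave fit, a feeding signal of the fat body (-3.06 ± 0.59, limma adjusted p = 0.0062), and dsx (doublesex, -0.86 ± 0.21) as lower under all 3 scalings among 5 tested, with dsx not called without ZT 12 or ZT 20. In the same list sxe2 (0.67 ± 0.15, limma adjusted p = 0.012) and Yp1, a yolk protein gene (0.77 ± 0.17, limma adjusted p = 0.013), were higher as deposited and not stable to scaling. fit ran from 38.5 to 127 units in dnClk and from 265 to 763 in WT, apart from 4515 in the WT array at ZT 44. The P450 gene Cyp4d21 gave -0.20 ± 0.25 at night (limma adjusted p = 0.55).

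Marker genes of the tissue and of its neighbours differed in level between the genotypes. The mean of 9 fat body markers was 8.94 ± 0.15 log2 units in dnClk (8.72 to 9.11) and 10.82 ± 0.33 in WT (10.32 to 11.20), without overlap (SD, n = 6 each, exact permutation p = 0.0022, adjusted p = 0.0046). Of these 9 genes 6 were lower under all 3 scalings, with a median difference of -1.75 as deposited and -0.97 after quantile normalization. Apart from Gnmt, Hex-C, Pepck1, Lsp2, FASN1 and Lsd-1 the list holds apolpp, Yp1 and NLaz, the last with 479 units in dnClk and 489 in WT. Yp1 went the other way: it was higher in dnClk as deposited with no overlap, and was not stable to scaling. apolpp was lower as deposited but not after quantile normalization. The fat body list shares genes with the sugar and lipid lists above. In pooled tissue, fewer fat body cells and less of these RNAs per cell cannot be told apart.

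Haemocyte markers, for the blood cells, averaged 8.55 ± 0.15 log2 units in dnClk (8.42 to 8.81) and 7.40 ± 0.26 in WT (6.93 to 7.68), again without overlap (SD, n = 6 each, exact permutation p = 0.0022, adjusted p = 0.0046). Of 10 markers 5 were higher under all 3 scalings and 0 lower, and 3 were when any pair but that of ZT 44 was left out. He (hemese) had a mean of 627 units in dnClk and 105 in WT (2.47 ± 0.17), NimC1, a phagocytosis receptor, 672 in dnClk and 119 in WT (2.37 ± 0.15), and Pxn (peroxidasin), Hml (hemolectin) and eater differed by 1.53, 1.20 and 1.09, with the calls of Hml and eater being the ones lost. vkg, Col4a1 and crq, which other cells express too, gave 0.28, 0.51 and 0.33 and did not pass. PPO1 and PPO2, the rest of the list, were not stable to scaling either. lectin-24A, LysX and Drsl5 were higher on the same arrays, and the part of blood cells in those results was not tested.

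Transcripts of male reproductive tissue varied widely between arrays. Testis markers averaged 8.39 ± 1.0 log2 units in dnClk and 6.94 ± 1.86 in WT (SD, n = 6 each, exact permutation p = 0.13, adjusted p = 0.17). Of 18 testis genes 8 were higher as deposited and 1, dj, under all 3 scalings, a call lost without ZT 12, 16, 20 or 40. dnClk ran from 7.02 to 9.48, while the WT array at ZT 36 reached 10.57 and the other 5 WT arrays lay between 5.27 and 7.01. Without the ZT 36 pair the difference was 1.96 (unpaired exact permutation p = 0.0079, 5 arrays against 5) and 13 testis genes were called higher under all 3 scalings. Accessory gland and ejaculatory tract markers averaged 7.78 ± 0.46 in dnClk and 6.90 ± 0.26 in WT (exact permutation p = 0.0043, adjusted p = 0.0081), with 0 of 9 called under all 3 scalings. Gut (7.87 in dnClk, 7.59 in WT), muscle (9.84 in dnClk, 10.05 in WT), oenocyte (9.31 in dnClk, 9.71 in WT) and neuron (6.79 in dnClk, 6.43 in WT) marker means overlapped between the genotypes. Single members still differed under all 3 scalings with any pair left out. LManI, of the gut list, was higher in dnClk (1.91) and CG18609, of the oenocyte list, lower (-1.43). Of 5 oenocyte markers 3 were lower and 1 higher as deposited.

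**Figure D5:**
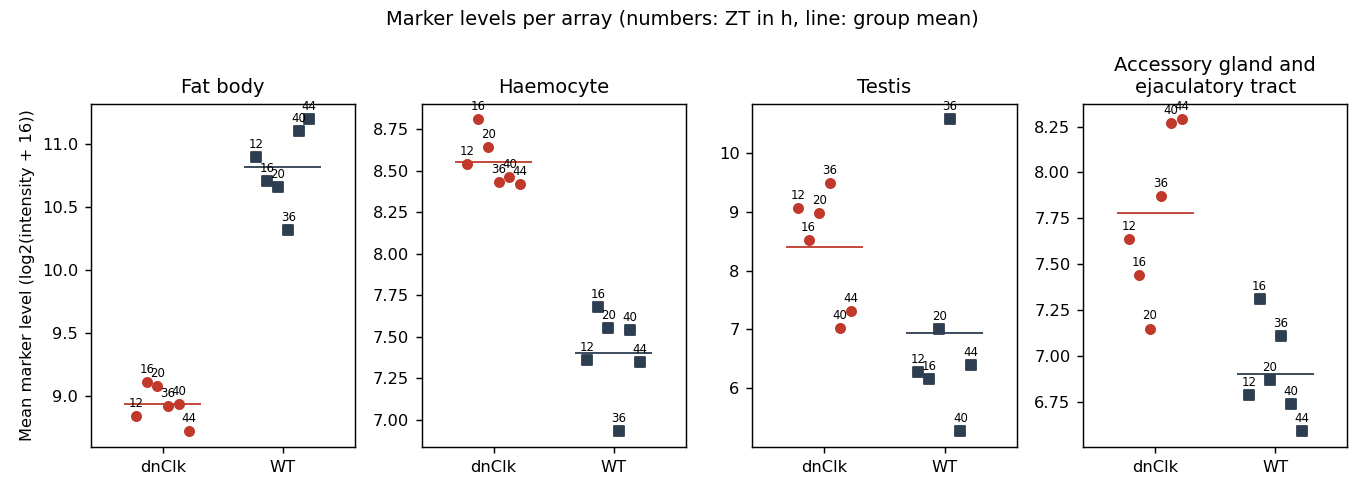
Mean log2(intensity + 16) of the tested markers of fat body (9 genes), haemocytes (10), testis (18) and accessory gland with ejaculatory tract (9) on each dusk and night array, with dnClk on the left, WT on the right, the ZT in hours beside each point, a line at each group's mean and its own vertical scale in each panel. Fat body and haemocyte levels do not overlap between the genotypes, and the WT array at ZT 36 stands above all others for testis.

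No probe set passed the test of a genotype difference that changed between night and day (limma, 0 of 11261, 0%, with 197 at an unadjusted p under 0.05, where evenly spread p-values would give 563). The same count of 0 came from quantile-normalized values, with 245 at an unadjusted p under 0.05. The smallest p belonged to Ag5r, an antigen 5-related gene, with a night difference of -5.27 and a day difference of -3.85, a night minus day value of -1.42 ± 0.22 (limma p = 2.6e-05, adjusted p = 0.29). Its dnClk arrays ran from 82.5 to 153 units at night and from 153 to 347 by day, and its WT arrays from 3716 to 6307 at night and from 2683 to 4620 by day. CG17560, a predicted fatty acyl-CoA reductase gene, was higher in dnClk at all 6 night times (0.62 ± 0.20, and 0.13 with median centring, limma adjusted p = 0.65) and had a day difference of -0.42 ± 0.13, a night minus day value of 1.04 ± 0.24 (limma p = 0.00091, adjusted p = 0.84). Its dnClk signal was 856 to 2728 units at night and 1652 to 2408 by day, and its WT signal 608 to 1024 at night and 2064 to 3363 by day. Abca3, an ABC transporter gene, had a night minus day value of 0.98 ± 0.25, with dnClk at 213 to 274 units at night and 219 to 308 by day, and WT at 33.5 to 104 at night and 106 to 247 by day. Others with small p were CG34290, Ppcs, whe, slow, NKCC and Ugalt, with night minus day values of -0.58 to -1.38, and the last of the 10 genes gave -0.47. None of them passed. A second probe set of Ppcs gave 0.07, against -0.58 for the one used.

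Nor did any probe set pass a test for a steady shift of the difference from ZT 12 to ZT 20 over the 2 nights (limma, 0 of 11261, 0%, with 496 at an unadjusted p under 0.05 and a smallest adjusted p of 0.61). The smallest p was for Smvt, a vitamin transporter gene (2.77 ± 0.34 from ZT 12 to ZT 20, limma adjusted p = 0.61), then CG32984, nemy, Mur18B and CG2187. CG32984 stayed between 34.1 and 73.8 units in dnClk throughout, while WT read 119, 216 and 667 on the first night and 118, 233 and 689 on the second. Its genotype difference over the night was -2.0 ± 0.38 (limma adjusted p = 0.0060) and its shift -2.45 ± 0.38 (limma adjusted p = 0.61). For tim the shift was -0.95, for per -0.94, for vri -0.16 and for Clk 0.03, each with a limma p above the threshold before adjustment.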

How the data were processed

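The authors summarised probe set intensities on a linear scale with MAS5 (version not stated), per the submitters' processing notes, and the deposited values have a trimmed mean of 150.0 on every array (2% off each end). Per the labels' protocols, RNA was amplified in vitro and labelled with biotin. The deposited intensity table was analysed as log2(intensity + 16). Control probe sets (183) were set aside. Of 18769 others, the 60% brightest by mean over the 36 arrays were tested (11261). GEO's platform annotation gave 13647 probe sets 1 symbol, 402 several and 4720 none. 13544 of the first were updated by Entrez number through a Release 6 gene table. The probe set with the highest mean stood for each gene (8472 genes).

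Paired differences by ZT were fitted with limma 3.58.1 in R 4.3.3, with Benjamini-Hochberg adjustment over the tested probe sets and a threshold of 0.05. The night minus day test set the 6 night differences against the 6 day differences, and the trend test fitted hours 12, 16 and 20 within nights. Array measures were compared with two-sided exact permutation tests over all divisions into 6 and 6, without pairing, adjusted over 15 measures. Arrays of the same ZT did not deviate together in a regular way: 2 of 6 pairs had a correlation of deviations over 0.1. These were ZT 36 (0.83) and ZT 40 (0.573), and the others were negative, from -0.361 to -0.141. For 1 of 6 dnClk arrays the WT array of its own ZT correlated best. Pairing therefore did not remove shared variation at most times. p-values measure the spread between times of a night, part of which may be technical, and precision is limited by the number of arrays. No 2 arrays held identical values. Scripts were tested on simulated data.

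Named genes are all core clock genes, the 10 most raised and 10 most lowered among genes called under all 3 scalings with 6 of 6 pairs alike and a mean over 100 units, the 10 smallest p for night minus day, the 5 smallest for the trend, and up to 2 members of each list. Other list members named were chosen after their values were seen. The members, the 38 gene and marker lists and the tests were chosen with earlier results of these data known. Alternatives were other scalings, ranks, pseudocounts of 1 and 64, filters, blocks, a testis covariate, an intensity trend and leaving out each pair.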

Additional observations from a re-analysis of the deposited data

Results flagged for a closer look

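Among 224 groups of 6 arrays examined, 17 held an array whose distance to its nearest neighbour exceeded 0.625 of the group's range, Dixon's critical value. Chance flags about 1 in 20 groups. All values are log2(intensity + 16).

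The dnClk array at ZT 44 was the one set apart for 6 items. It was highest for cwo (9.48, next 9.07, share of range 0.634), for RpLP0 (10.63, next 10.36, share 0.703), for the hybridisation controls (10.61, next 10.18, share 0.768) and for the Act5C 3′ to 5′ ratio (1.90, next 1.45, share 0.628). It was lowest for CG15865 (9.55, next 10.03, share 0.639) and LManII (10.09, next 10.48, share 0.698). The dnClk array at ZT 36 was lowest for CG16826 (5.57, next 6.92, share 0.666), and that at ZT 12 was lowest for the second Gapdh 3′ to 5′ ratio (2.85, next 3.01, share 0.713).

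In WT, the array at ZT 36 was highest for the testis mean (10.57, next 7.01, share 0.671), for Hsp26 (8.26, next 6.67, share 0.800) and for Hsp68 (7.26, next 5.89, share 0.820), and lowest for Gpdh1 (10.81, next 11.34, share 0.627). The array at ZT 12 was highest for CG44251 (7.40, next 5.39, share 0.723) and Smvt (7.63, next 5.00, share 0.836). The array at ZT 40 was highest for slow (7.76, next 6.88, share 0.789) and lowest for Ugt317A1 (5.07, next 5.56, share 0.768). The array at ZT 44 was highest for fit (12.15, next 9.61, share 0.633). With and without the ZT 36 pair, Hsp26 and Hsp68 were called higher in dnClk under all 3 scalings.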

How the results depend on the processing

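Scaling, the testis covariate and single pairs each moved the counts. Against 2122 probe sets higher and 1240 lower as deposited, quantile normalization gave 1146 and 1563, median centring 567 and 2444, ranks 985 and 1703, and the testis covariate 845 and 440. Leaving out each pair gave 1103 to 3172 higher and 836 to 1459 lower, and under all 3 scalings 327 to 774 genes higher and 471 to 906 lower. With no replicate block the counts were 2610 and 1395, and with the hour as the block 2446 and 1385. Against the WT arrays 2 h later, 2862 of the 3362 calls held with the same sign. The night minus day and trend counts were 0 under every alternative run.

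Signs turned for a few values. Median centring gave EbpIII -0.06. Ranks gave Mlc1 1.0, LManII 0.1 and Cyp4g1 0.0 percentile points, and quantile normalization 0.34, 0.02 and 0.03 log2 units. For night minus day, quantile normalization gave Pdp1 0.11, the testis covariate gave cyc 0.01, cwo 0.09, Pdp1 0.09 and cry 0.37, and cry was 0.02 with a pseudocount of 64 and ran from -0.12 to 0.01 without single pairs. Without single pairs the testis difference ran from 1.18 to 1.96, the gut difference from -0.04 to 0.44, the oenocyte difference from -0.56 to -0.30 and the Act5C ratio difference from 0.20 to 0.49. The cause of these changes was not tested.

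Time points were not replicated, the driver of the transgene is not known here, and genotype is confounded with array processing. The brightest signals are lower on dnClk arrays, and bright lists moved with the scaling. Without detection calls, no limit of detection can be given.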
